A study of Mus musculus with 33 samples.

Results

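Sites that Oct4 occupied in wild type (WT) mouse embryonic stem cells (mESC), and at which Sox2 but not Nanog was newly detected in Uhrf1 knockout (KO) mESC, numbered 2045 of the 12898 Oct4 summits of the WT library (15.9%). They were chosen from the positions of ChIP-seq summits, the bases at which reads of an immunoprecipitated factor pile up highest. Each had no KO Oct4 summit within 100 bp, at least 1 KO Sox2 summit within 100 bp that itself had no WT Sox2 summit within 100 bp, and no Nanog summit of that KO-specific kind within 100 bp. The 6 lists of Oct4, Sox2 and Nanog summits in WT and KO mESC therefore fixed the count, which is a description. Of the WT Oct4 summits, 98.1% had no KO Oct4 summit within 100 bp, so the first condition removed few, and the 2045 sites made up 16.2% of the 12654 left.

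The study profiled E14 mESC, an established mouse line grown with leukemia inhibitory factor on gelatin or feeder fibroblasts, as WT and as Uhrf1 KO cells, both received from another laboratory. It also profiled embryoid bodies (EBs), aggregates in which the cells differentiate, of both genotypes at weeks 1, 2 and 3. Of 33 samples, 25 had a list of regions used here, covering Oct4, Sox2, Nanog and H3K9me3 in WT and Uhrf1 KO mESC, Uhrf1 in WT mESC, and H3K4me3 and H3K27me3 in mESC and EBs of both genotypes. Each combination of genotype, stage and target was 1 library, so WT and KO were compared with no measure of replicate variation, no test and no p-value, and genotypes cannot be told apart from cell lines or libraries. Intervals are at the 95% level (Wilson's for shares, Newcombe's for a difference of 2 shares) and cover counting error over sites only. The lists were of unequal length. The WT library gave 12898 Oct4, 5190 Sox2 and 2390 Nanog summits and the KO library 576, 20755 and 10632. Read totals per library are not used here. As a check of the cells, an H3K4me3 domain lay within 2 kb of the start of 5 of 6 mESC markers in WT and in KO (Pou5f1, Sox2, Nanog, Zfp42 and Tdgf1, but not Esrrb). It also lay at 4 of 6 fibroblast genes in WT (Col1a1, Col1a2, Thy1 and Twist2) and at 3 in KO, so these domains did not separate the cell types, and the part of feeder cells in the results was not tested.

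Oct4 (encoded by Pou5f1) and Sox2 are the transcription factors that, with Nanog, hold stem cells in the pluripotent state. They often bind DNA side by side on a composite element in which a Sox motif is followed directly by an octamer, although each can bind alone. Uhrf1 recognises hemimethylated DNA and modified histone H3 and brings the maintenance methyltransferase Dnmt1 to newly copied DNA. H3K4me3 marks active and poised promoters, and H3K27me3 and H3K9me3 mark repressed chromatin.

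The sequences below are the mm9 (NCBIM37) plus strand from 50 bp before to 50 bp after the WT Oct4 summit, 5′ to 3′, and each is named by the protein-coding gene with the nearest start. Capitals mark matches on either strand to the octamer (ATGCAAAT), a Sox element (CATTGT or CTTTGT), an Esrrb element (AAGGTCA), a Klf element (GGGNGTG), or the Oct-Sox composite read as CATTGT, 1 base and ATGCAAAT with at most 3 of its 14 letters differing. The 6 sites with the tallest WT Oct4 summits are shown first.
Fgd2, chr17:29536300-29536400: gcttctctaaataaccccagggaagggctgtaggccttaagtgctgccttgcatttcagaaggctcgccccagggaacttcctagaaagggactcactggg
Sox2, chr3:34545264-34545364: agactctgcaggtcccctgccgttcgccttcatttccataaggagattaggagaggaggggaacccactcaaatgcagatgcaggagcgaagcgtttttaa
Reep3, chr10:66563193-66563293: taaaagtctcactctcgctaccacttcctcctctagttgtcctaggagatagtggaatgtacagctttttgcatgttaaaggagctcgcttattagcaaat
Mycn, chr12:12950036-12950136: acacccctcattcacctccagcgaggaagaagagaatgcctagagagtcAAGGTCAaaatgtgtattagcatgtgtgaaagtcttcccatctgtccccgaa
Timm22, chr11:76296861-76296961: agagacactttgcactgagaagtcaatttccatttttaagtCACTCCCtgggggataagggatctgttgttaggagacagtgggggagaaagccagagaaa
Gm14401, chr2:176914149-176914249: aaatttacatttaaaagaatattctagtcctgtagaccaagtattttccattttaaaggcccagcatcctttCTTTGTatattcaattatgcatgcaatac

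None of these 6 stretches held the octamer or the composite by these letters. The capitals mark an Esrrb element near Mycn, a Klf element near Timm22 and a Sox element near Gm14401. The 6 sites with the tallest KO Sox2 summits follow in the same way.
Rhpn2, chr7:36136294-36136394: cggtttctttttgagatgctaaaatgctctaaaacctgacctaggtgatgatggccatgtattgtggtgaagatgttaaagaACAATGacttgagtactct
Hoxb13, chr11:96051690-96051790: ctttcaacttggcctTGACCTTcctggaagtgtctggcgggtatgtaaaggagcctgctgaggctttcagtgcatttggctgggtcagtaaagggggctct
Gm5089, chr14:122815700-122815800: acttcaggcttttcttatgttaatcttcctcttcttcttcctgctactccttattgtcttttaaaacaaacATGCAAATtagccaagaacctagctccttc
Pla2g2d, chr4:138350449-138350549: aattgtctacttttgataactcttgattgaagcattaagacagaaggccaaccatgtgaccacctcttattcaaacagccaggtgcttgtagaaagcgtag
Spaca3, chr11:80702988-80703088: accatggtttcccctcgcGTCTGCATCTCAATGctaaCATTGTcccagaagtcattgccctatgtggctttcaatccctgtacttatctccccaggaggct
Inhbb, chr1:121201938-121202038: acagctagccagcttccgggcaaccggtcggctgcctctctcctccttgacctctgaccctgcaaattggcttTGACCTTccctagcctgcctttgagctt

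Here the capitals mark a Sox element near Rhpn2, an Esrrb element near Hoxb13 and near Inhbb, the octamer near Gm5089, and the composite together with a separate Sox element near Spaca3, while the stretch near Pla2g2d held none of these letters. The 4 sites whose sequence within 50 bp of the summit came closest to the composite follow. The stretch near Sox9 matched 14 of 14 letters. The other 3 matched 13 letters and were taken by WT Oct4 height from the sites that did so within 50 bp.
Sox9, chr11:112672540-112672640: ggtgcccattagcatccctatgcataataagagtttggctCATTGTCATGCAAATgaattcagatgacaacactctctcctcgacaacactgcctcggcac
5730522E02Rik, chr11:26003904-26004004: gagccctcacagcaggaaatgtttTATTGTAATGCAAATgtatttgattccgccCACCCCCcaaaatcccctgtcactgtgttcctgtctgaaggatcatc
Prr5, chr15:84452574-84452674: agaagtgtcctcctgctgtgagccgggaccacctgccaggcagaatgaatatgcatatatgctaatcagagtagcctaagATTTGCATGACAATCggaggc
Shisa3, chr5:68024735-68024835: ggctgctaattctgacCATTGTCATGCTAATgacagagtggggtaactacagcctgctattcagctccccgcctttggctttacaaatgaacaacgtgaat

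The Sox9 site lay 29.1 kb downstream of the start of Sox9, a Sox family factor of cartilage and testis, with a WT Oct4 height of 85 reads and a KO Sox2 height of 42 reads. The 5730522E02Rik site, in an intron of that gene, had heights of 102 and 65 reads, the Prr5 site, 47.4 kb upstream of that gene, 82 and 29, and the Shisa3 site, in an intron of Atp8a1, 80 and 53. All of these WT Oct4 heights were above 51 reads, the upper quartile of the 2045 sites. Apart from the Sox9 site, these sites had been taken by WT Oct4 height, which largely fixed this result. Their heights therefore cannot show whether a close match to the composite goes with tall Oct4 summits. The last sequence stands for a repeated kind of site. It was identical, base for base, at sites near Olfr470, Cdh7 and Cntnap5a (on the minus strand), and the windows of 883 other WT Oct4 sites shared at least 50% of their 20-base words with that of the Olfr470 site.
Olfr470, chr7:114997645-114997745: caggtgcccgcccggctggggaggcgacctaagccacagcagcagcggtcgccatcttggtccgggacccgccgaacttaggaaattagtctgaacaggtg

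At the 2045 sites, the height of the WT Oct4 summit, the number of reads piled up there, ranged from 13 to 135 with a median of 38, beside 37 over all WT Oct4 summits. The height of the KO Sox2 summit ranged from 9 to 113 with a median of 20, beside 16 over all 17403 KO-specific Sox2 summits. The KO Sox2 summit lay a median of 28 bp from the WT Oct4 summit (quartiles 13 and 54), within 10 bp at 438 sites and on the same base at 19. It lay at the lower coordinate at 1037 sites and at the higher one at 989. Each site had a KO Sox2 summit of its own (2045 distinct summits), and only 2 sites had another of the 2045 within 1000 bp. Across sites, taller WT Oct4 summits went with taller KO Sox2 summits (Spearman rho 0.475, Pearson r 0.493, n = 2045) and with a shorter distance between them (rho -0.212), as a description over sites that share the same libraries. Oct4 and Sox2 heights came from different antibodies, so their sizes were not compared as levels. At the 100 bp limit, the sites just inside it were near Edem1 (Oct4 72 reads, Sox2 14) and Actn4 (53 and 26), at 100 bp, and those just outside were near Lzts1 (102 and 30) and 1110008E08Rik (54 and 37), at 101 bp.

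**Figure D1:**
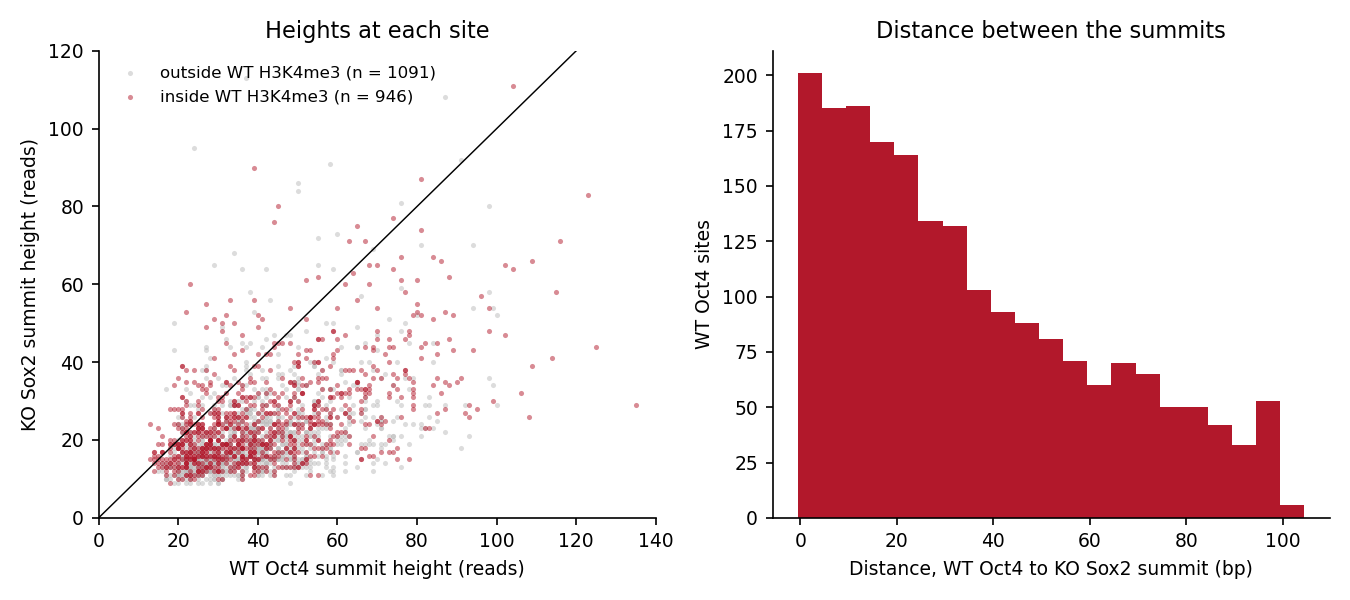
Left, the KO Sox2 summit height (reads) against the WT Oct4 summit height (reads) for the 2037 sites on assembled chromosomes, coloured by whether the site lay in a WT H3K4me3 domain, with the line of equal heights. Right, the number of those sites by the distance in bp between their summits, in steps of 5 bp. Heights rise together with wide scatter, and the distances pile up near 0 around a median of 28 bp.

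By the rule, Sox2 was the only factor with a KO-specific summit within 100 bp, but it was not always alone. At 264 of the 2045 sites (12.9%) a KO Nanog summit lay within 100 bp and was not KO-specific, since a WT Nanog summit lay within 100 bp of it, and 288 sites (14.1%) had a WT Nanog summit within 100 bp. These sites were tall, with medians of 51 reads of WT Oct4 and 31 of KO Sox2, against 36 and 19 where no KO Nanog was near. The share with KO Nanog within 100 bp was 2.46% (1.30 to 4.61) in the lowest of 5 groups by WT Oct4 height and 28.1% (24.0 to 32.6) in the highest. Summits of WT Nanog and of KO Nanog lay within 100 bp at 6 of the 10 tallest sites by WT Oct4 and at 7 of the 10 tallest by KO Sox2, so at these prominent sites Nanog was called in both genotypes and Sox2 was not alone. Another 125 sites had a KO-specific Nanog summit farther than 100 but within 200 bp. A WT Sox2 summit lay within 100 bp of the Oct4 summit at 51 sites (2.49%), where the KO Sox2 summit counted as new because it lay more than 100 bp from the WT one. The site near Hoxb13 was of this kind, with WT Sox2 at 20 bp. This left 1722 sites (84.2%) with no WT Sox2, WT Nanog or KO Nanog summit within 100 bp. At those 1722 the share in WT H3K4me3 was 45.6%, beside 46.3% of all 2045. The low share with WT Sox2 followed largely from the rule, which required a KO Sox2 summit with no WT one within 100 bp. The rule set no such condition on sites replaced by Nanog alone, of which 61.9% had a WT Sox2 summit within 100 bp, so the 2 shares are not comparable.

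The sites lay mostly away from gene starts. By the annotation of the same build, 205 (8.80 to 11.4%) were within 1 kb of the start of a protein-coding gene, against 6.04% of all WT Oct4 sites. The share was 4.34% (3.35 to 5.60) with summits at or above the median height of each list and 4.75% (3.63 to 6.19) with the KO lists shortened to the length of the WT lists. The rest fell in exons (54), introns (647) or between genes (1139), and the median distance to a start was 30.5 kb. The share near a start exceeded that of sites replaced by Nanog alone by 6.84 percentage points (5.19 to 8.44), that of sites replaced by Sox2 and Nanog by 6.95 (5.31 to 8.55), and that of sites lost with no KO Sox2 or Nanog within 100 bp, called bare losses here, by 4.17 (2.80 to 5.66). The 205 sites near a start were rich in G and C (median 64.7% within 100 bp, against 49.3% of the others) and in CG dinucleotides (median 15 against 2). Their Oct4 summits were lower (median 28 reads against 39.5) while their KO Sox2 summits were alike (19 against 20). The tallest of them by WT Oct4 lay 36 bp downstream of the start of Foxh1, a transcription factor of Nodal signalling, in an annotated exon, with 109 reads of WT Oct4 and 66 of KO Sox2. The chromosomes held about the same shares of these sites as of all WT Oct4 sites, for example 8.31% and 7.69% on chromosome 11 and 3.28% and 3.92% on X.

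Active chromatin covered the sites more often than it covered bare losses, while the comparison with sites replaced by Nanog alone depended on the height of the summits. In WT mESC, 946 of the 2045 sites (46.3%, 44.1 to 48.4) lay in an H3K4me3 domain, against 38.0% of all WT Oct4 sites. The share was 45.8% at sites replaced by Nanog alone, a difference of 0.432 points whose interval of -3.02 to 3.87 includes 0. It was 40.8% at sites replaced by Sox2 and Nanog, a difference of 5.44 points (2.00 to 8.86), and 27.3% at bare losses, a difference of 19.0 points (16.5 to 21.4). Since WT Oct4 height differed between the groups (medians of 47.5, 45 and 29 reads, in the same order), the differences were also taken within 5 groups of equal height. They were then 3.64 points (-0.0726 to 7.36), 7.69 (4.01 to 11.4) and 14.3 (11.7 to 16.9). When each list was limited to summits at or above its median height, the difference from Nanog alone was -6.71 points (-10.9 to -2.47) and that from Sox2 and Nanog 1.14 (-3.27 to 5.53). The latter interval also included 0 with a distance of 50 bp (0.866, -3.10 to 4.80) and with shortened KO lists (2.52, lower bound -4.94).

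Most of the sites in H3K4me3 were still in it in KO mESC. Of the 946 sites, 715 (75.6%, 72.7 to 78.2) also lay in a KO H3K4me3 domain and 231 did not. Over all WT Oct4 sites in WT H3K4me3, 27.9% were outside it in KO. The kept share was 5.91 points above that of bare losses (2.36 to 9.37), while its differences from sites replaced by Nanog alone (2.57, -1.85 to 7.09) and by Sox2 and Nanog (1.01, -3.51 to 5.69) had intervals that include 0. Of the 1099 sites outside WT H3K4me3, 57 (5.19%) lay in it in KO, against 3.94% of all such WT Oct4 sites. The share in H3K4me3 was thus 37.8% in KO, and 29.8% over all WT Oct4 sites.

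In KO, fewer of the sites lay in H3K27me3 and more in H3K9me3, as over all WT Oct4 sites. For H3K27me3, 552 sites (25.1 to 29.0%) lay in a WT domain and 103 (5.04%) in a KO domain, and 470 of the 552 were outside it in KO. Over all WT Oct4 sites, 88.8% of those in WT H3K27me3 were outside it in KO. Lists of this mark had a total length of 84.1 Mb in KO against 959.7 Mb in WT, whose part in the result was not tested. For H3K9me3, 755 sites (36.9%, 34.9 to 39.0) lay in a WT domain and 1074 (52.5%) in a KO domain. Of the 755, 592 (78.4%) were in it in both and 163 were not in KO, where 20.8% of all WT Oct4 sites in WT H3K9me3 were not. Another 482 sites were in it only in KO and 808 in neither genotype. Over all WT Oct4 sites the share in H3K9me3 went from 41.6% in WT to 53.2% in KO, with 2614 sites only in KO and 4920 in neither. Both H3K9me3 lists were long, at 988 Mb in WT and 1086 Mb in KO. In WT, sites replaced by Sox2 alone were in H3K27me3 less often than bare losses by 7.27 points (interval of the difference -9.50 to -4.98) and in H3K9me3 less often by 8.88 points (-11.3 to -6.43). In KO the corresponding differences were 1.37 points (0.366 to 2.49) and 1.34 points (-1.16 to 3.83). H3K4me3 and H3K27me3 together, a bivalent state, covered 217 sites (10.6%) in WT, and 494 (24.2%) lay in none of the WT histone domains. The bivalent share was 8.95% at sites replaced by Nanog alone, 7.69% at those replaced by Sox2 and Nanog and 7.49% at bare losses. The share in none was 23.4%, 27.4% and 28.8%, in the same order.

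Uhrf1 itself, mapped as 10 kb windows in WT mESC, covered 158 of the 2045 sites (7.73%, 6.65 to 8.96), against 11.0% of all WT Oct4 sites. That was above the sites replaced by Nanog alone by 4.84 points (3.34 to 6.30) and by Sox2 and Nanog by 3.73 (2.11 to 5.28), and below the 17.7% of bare losses (difference -9.98 points, -11.4 to -8.43). The 158 sites had few H3K4me3 domains (8.86%, against 49.6% of the sites outside Uhrf1 windows), lower heights (median 30 reads of WT Oct4 and 14 of KO Sox2, against 39 and 21) and more CG dinucleotides (median 10 against 3).

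**Figure D2:**
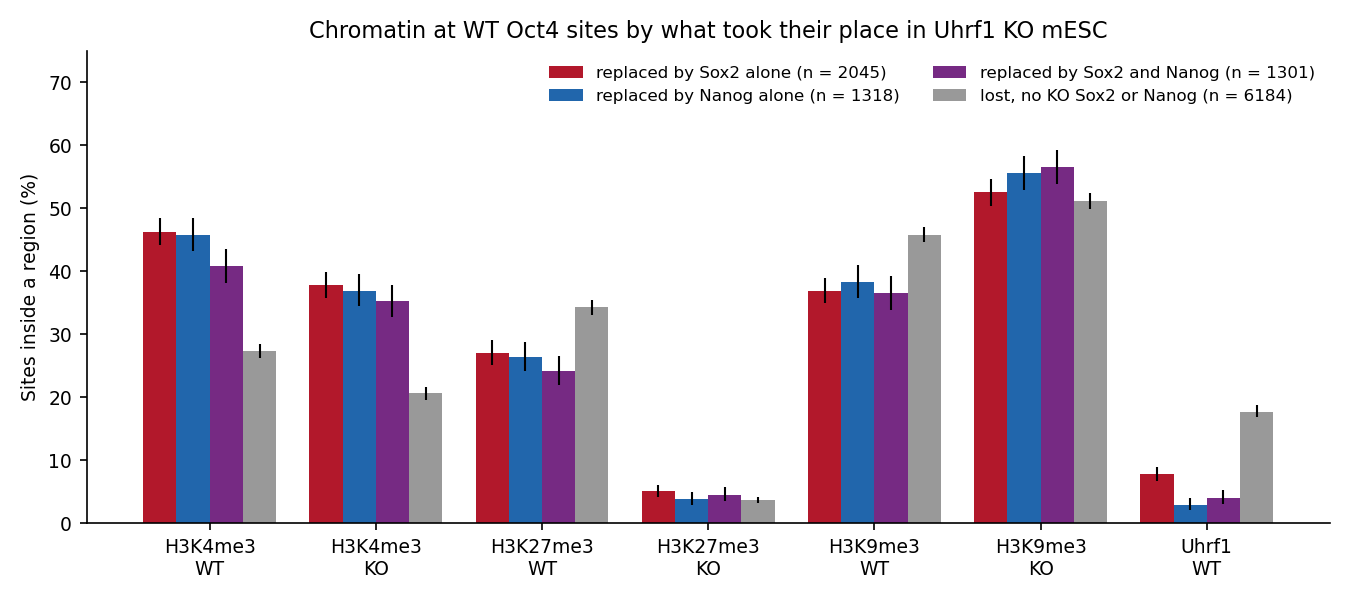
Share of WT Oct4 sites (%) inside H3K4me3, H3K27me3 and H3K9me3 domains of WT and KO mESC and inside WT Uhrf1 windows, for the 2045 sites replaced by Sox2 alone and 3 other groups of lost sites; error bars are Wilson 95% intervals over sites. Sites replaced by Sox2 alone stand at 46.3% in WT H3K4me3 and bare losses at 27.3%, and in Uhrf1 windows they stand at 7.73% and 17.7%.

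Much of the distance from bare losses went with repeated sequence. A window was called repeated when at least 50% of the 20-base words within 100 bp of its summit also lay in the window of another WT Oct4 site at least 1 kb away. This held for 489 of the 2037 sites with sequence (24.0%), against 51.5% of bare losses, 18.0% of sites replaced by Nanog alone and 19.5% of those replaced by Sox2 and Nanog. Repeated sites differed from the other 1548 in nearly every measure. They lay in Uhrf1 windows in 26.8% against 1.74% and in WT H3K4me3 in 15.1% against 56.3%. Their median heights were 32 against 40 reads of WT Oct4 and 15 against 22 of KO Sox2. Of the 158 sites in Uhrf1 windows, 131 were repeated. The 67 sites that shared their words with at least 500 others included 32 in a Uhrf1 window and 1 in WT H3K4me3. The study kept 1 alignment for each read, so reads of such copies were placed at 1 of several equal positions, and the part of this placement in the results was not tested.

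Without repeated windows in any group, the H3K4me3 difference from bare losses was 5.11 points (2.04 to 8.16) rather than 19.0, with shares of 56.3% and 51.2%. The differences from sites replaced by Nanog alone and by Sox2 and Nanog were then larger, at 5.82 (1.94 to 9.68) and 10.1 points (lower bound 6.19). The Uhrf1 share was 1.74%, and all 3 of its differences had intervals that include 0, at 0.816 points from Nanog alone (-0.128 to 1.70), 0.885 from Sox2 and Nanog (-0.0542 to 1.77) and -0.794 from bare losses (-1.63 to 0.140). The differences from bare losses in WT were -4.03 points for H3K27me3 (-6.72 to -1.28) and -3.66 for H3K9me3 (-6.50 to -0.761), and that in KO H3K27me3 was 0.339 (-1.08 to 1.87). The bivalent share in WT was then 12.8%, against 13.8% of bare losses. The share near a gene start remained above that of sites replaced by Nanog alone by 7.66 points (5.68 to 9.60), but its difference from bare losses was 0.735 points (-1.16 to 2.72).

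The WT Oct4 height ordered the sites into different kinds. In 5 groups by height, the share near a gene start went from 23.8% (19.7 to 28.4) at 13 to 25 reads to 13.2%, 8.19%, 3.21% and 3.61% at 55 to 135 reads. The share with the composite, counted with at most 3 mismatches, went the other way, from 1.91% (0.929 to 3.89) through 14.4%, 28.7% and 32.9% to 36.7% (32.1 to 41.4). H3K4me3 in WT was high at both ends, at 53.0% (47.9 to 58.1) in the lowest and 53.8% (49.0 to 58.6) in the highest group, and 40.7% to 42.7% between them. From the lowest to the highest group, the share in Uhrf1 windows went from 14.8% to 4.09%, that in repeated windows from 33.1% to 13.8%, and the median KO Sox2 height from 16 to 30 reads. In the lowest height group, sites near a gene start made up 7.59% (3.53 to 15.6) of sites replaced by Nanog alone, 6.58% (2.84 to 14.5) of those replaced by Sox2 and Nanog and 8.03% (6.98 to 9.21) of bare losses, so there the share for Sox2 alone had an interval above those of the other 3. In that lowest group, repeated windows made up 70.1% of bare losses and 33.1% of the sites replaced by Sox2 alone. With height groups cut on both classes together, the largest difference from bare losses in the share near a start was 17.6 points. Without repeated windows it was 11.3. In the highest group the 4 shares near a start ran from 2.67% to 4.27%. The share of WT H3K4me3 sites still in it in KO was between 71.0% and 78.4% in the 5 groups, whose intervals overlapped.

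**Figure D3:**
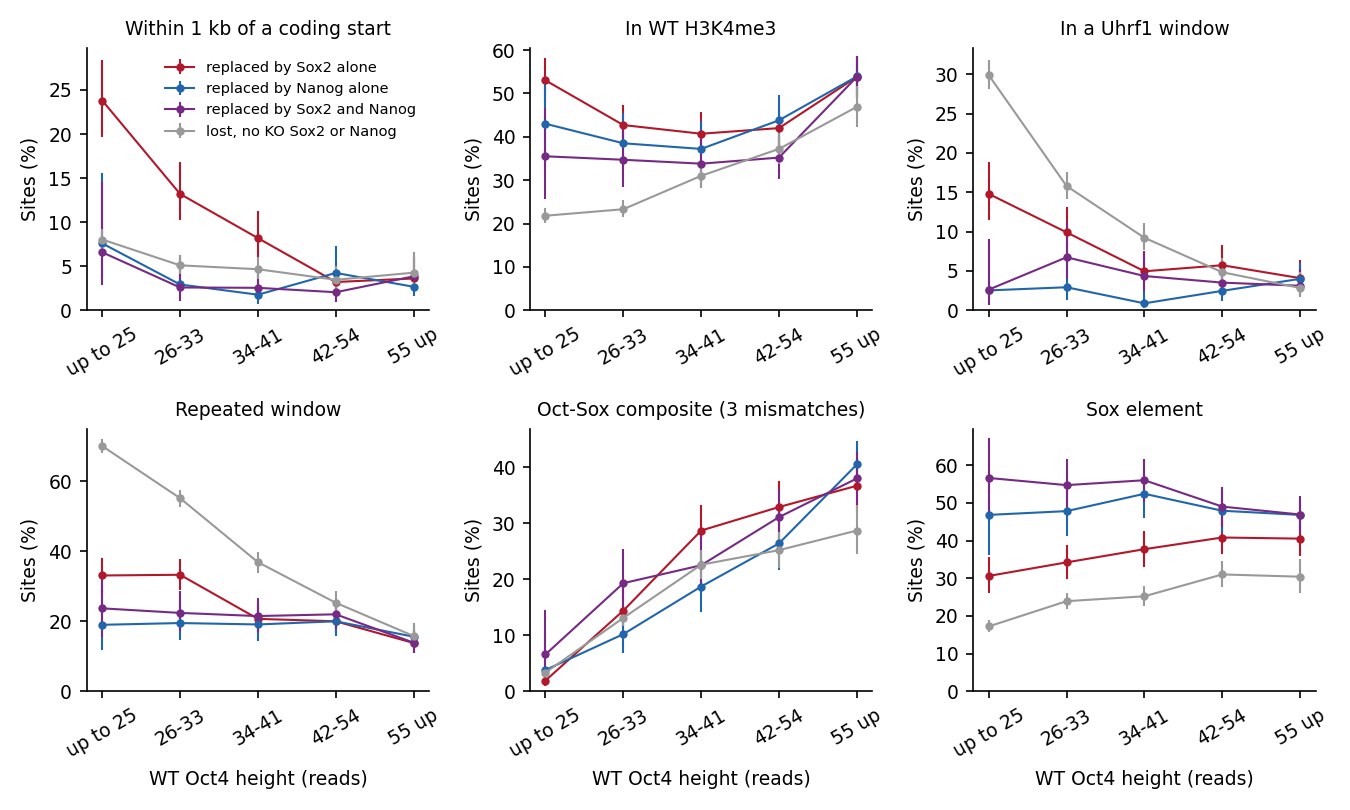
Share of sites (%) near a gene start, in WT H3K4me3, in a Uhrf1 window, in a repeated window, with the composite (at most 3 mismatches) and with a Sox element, in 5 groups of WT Oct4 height (reads), for 4 groups of lost sites; error bars are Wilson 95% intervals. For sites replaced by Sox2 alone, the share near a start goes from 23.8% to 3.61% and the composite from 1.91% to 36.7% between the lowest and the highest group.

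The sequence around the summits was examined in windows of 100 bp either side, in which both strands were searched. The octamer was present in 227 of 2037 sites (11.1%), against 1.72% of 635735 genome windows of the same length, and the Esrrb element in 8.74% against 3.77%. The Klf element was present in 21.2% against 9.37%. Other lost sites also held these 3 elements. For sites replaced by Nanog alone, by Sox2 and Nanog, and bare losses, the octamer shares were 13.6%, 18.0% and 8.07%. In the same order, the Esrrb element was in 12.5%, 11.2% and 5.19%, and the Klf element in 22.7%, 17.9% and 15.9%. At sites replaced by Sox2 alone, the Sox element was found in 36.9% (34.8 to 39.0) against 28.5% of genome windows, although every one had been chosen for a KO Sox2 summit. Sites replaced by Nanog alone held a Sox element in 48.1% and those replaced by Sox2 and Nanog in 51.1%, which left Sox2 alone lower by 11.2 points (interval of the difference -14.6 to -7.79) and 14.2 points (-17.6 to -10.7). Bare losses held it in 22.9%, lower by 11.7 to 16.4 points. Without repeated windows these 3 differences were -7.03, -7.65 and 10.1 points. A strict form of the composite (CNTTGT, 1 base, ATGNNAA) was in 37 sites (1.82%, 1.32 to 2.49) against 0.0569% of genome windows, and the form with at most 3 mismatches in 477 (23.4%) against 3.33%. These forms overlap with the octamer and the Sox element. The strict share differed from that of sites replaced by Nanog alone by 0.0647 points (-0.931 to 0.957) and from that of bare losses by 1.27 points (0.724 to 1.96). For the form with at most 3 mismatches, the difference from Nanog alone was -3.39 points (-6.43 to -0.396) over all sites and 2.43 (-0.330 to 5.20) within height groups, and that from bare losses 9.88 and 4.44 (2.27 to 6.60). For the octamer the difference from bare losses was 3.07 points over all sites and -0.176 (-1.88 to 1.53) within height groups.

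Where the composite was present, KO Sox2 summits lay more often on its Sox side, and Oct4 summits centred on it. At the 477 sites the WT Oct4 summit had a median offset of 0 bp from the centre of the element, while the KO Sox2 summit had a median of -9 bp, where negative is toward the Sox motif. The KO Sox2 summit lay on the Sox side at 290 sites and on the Oct side at 186. At 368 sites replaced by Sox2 and Nanog the same medians were -3 and -2 bp, with 189 KO Sox2 summits on the Sox side and 176 on the Oct side. The Oct4 summit was within 20 bp of the centre at 66.7% of the 477 sites and the KO Sox2 summit at 45.5%. In the Sox9 sequence above, with all 14 letters, the Sox2 summit lay 39 bp from the Oct4 summit. Sites with the composite had taller summits than sites without it (median 47 against 35 reads of WT Oct4, and 24 against 19 of KO Sox2) and a shorter distance between them (21 against 31 bp).

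**Figure D4:**
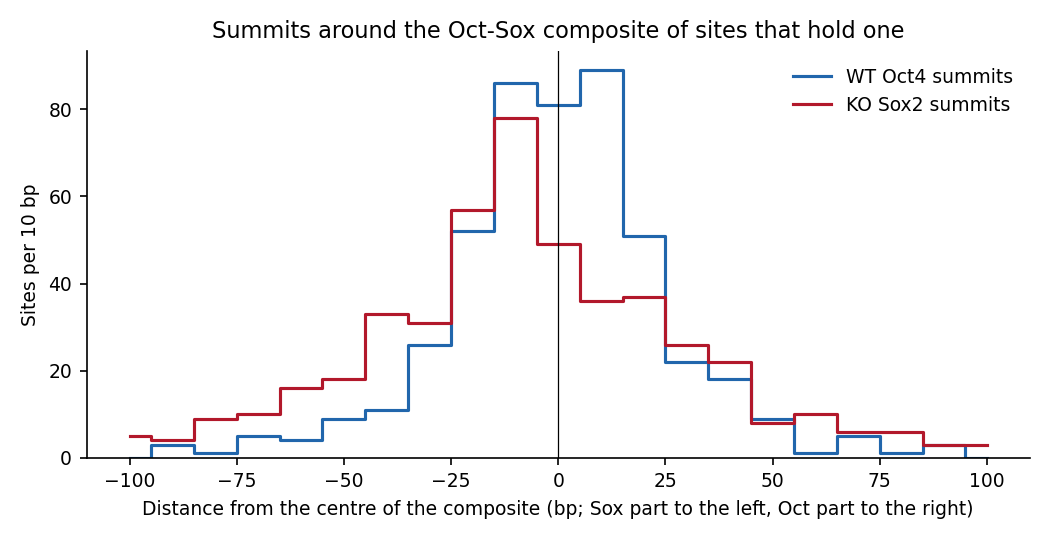
Number of sites per 10 bp by the distance (bp) of the WT Oct4 summit and of the KO Sox2 summit from the centre of the composite, for summits in the plotted range at the 477 sites that hold it with at most 3 mismatches, all turned so that the Sox motif is to the left. Oct4 summits centre on the element (median 0 bp), and KO Sox2 summits peak on the Sox side (median -9 bp).

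In EBs, H3K4me3 was lowest at week 1 in both genotypes. From mESC through weeks 1, 2 and 3, the WT share in it was 46.3%, 23.3%, 34.7% and 39.9%, and the KO share 37.8%, 14.7%, 41.0% and 44.0%. The KO share was thus below WT in mESC and at week 1 and above it at weeks 2 and 3, and all WT Oct4 sites showed the same signs. Of sites in WT H3K4me3, 60.4% (55.9 to 64.7) were also in KO H3K4me3 at week 1, 87.7% (85.1 to 90.0) at week 2 and 91.8% (89.7 to 93.5) at week 3. The same kept shares over all WT Oct4 sites, 59.4%, 85.4% and 91.3% in that order, lay inside these intervals. The excess over bare losses in WT was 8.98 points (6.99 to 11.0) at week 1, 13.4 (11.2 to 15.8) at week 2 and 16.9 (14.6 to 19.3) at week 3. Without repeated windows it was 0.467 (-2.30 to 3.28), 1.74 (-1.30 to 4.79) and 3.65 points (0.570 to 6.72). At week 1 the sites also exceeded those replaced by Nanog alone, by 6.63 points (3.87 to 9.32), and those replaced by Sox2 and Nanog, by 10.6 (7.94 to 13.1). At weeks 2 and 3 the difference from Nanog alone was 2.32 (-0.959 to 5.56) and -0.386 points (-3.79 to 2.99), with intervals that include 0. The difference from Sox2 and Nanog was then 4.74 (1.48 to 7.95) and 5.31 points (1.95 to 8.63). For H3K27me3 the EB shares were 10.4%, 31.7% and 26.0% in WT and 11.2%, 17.9% and 15.7% in KO. The covered length of the lists differed as well. The H3K27me3 lists held 101 Mb (WT) and 180.1 Mb (KO) at week 1 but 1165 and 467 Mb at week 2. The H3K4me3 lists held 107 and 73.4 Mb at week 1 and 206 and 154 Mb at week 2, where the KO list was the shorter although the share of sites in it was higher. The part of these lengths in the shares was not tested.

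**Figure D5:**
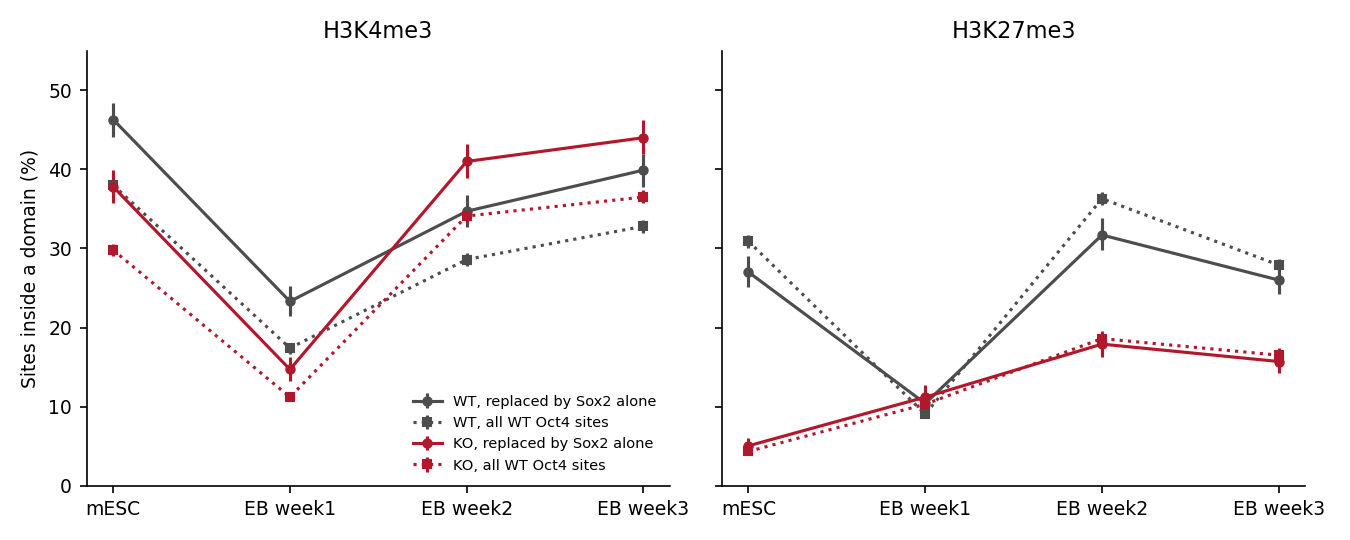
Share of sites (%) inside H3K4me3 (left) and H3K27me3 (right) domains in mESC and in EBs at weeks 1, 2 and 3, for WT and KO, at the 2045 sites replaced by Sox2 alone and at all 12898 WT Oct4 sites; error bars are Wilson 95% intervals over sites, with 1 library per point. For H3K4me3 the KO share is below WT in mESC and at week 1 and above it at weeks 2 and 3 (41.0% against 34.7% and 44.0% against 39.9%).

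The 10 sites with the tallest WT Oct4 summits all lay in WT H3K4me3, and 6 of them also in KO H3K4me3. Of these, 3 were beside genes of the pluripotency network. The site 3.61 kb upstream of Sox2, the gene of the incoming factor itself, had 125 reads of WT Oct4 and 44 of KO Sox2, 14 bp apart. It was in H3K4me3 in both genotypes and in H3K27me3 only in WT. The site 1366 bp upstream of Mycn, a Myc family factor of proliferating stem cells, had 116 and 71 reads and was in H3K4me3 in both genotypes. The site 41.6 kb downstream of the start of Klf5, a zinc finger factor of naive pluripotency, had 106 and 32 reads and was in H3K4me3 only in WT. Jmjd1c, a histone demethylase family gene, and its neighbour Reep3 held 2 sites, at 123 and 83 reads in a Jmjd1c intron and at 109 and 39 reads in a Reep3 intron, and the first was in H3K4me3 in both genotypes. The tallest of all, 38.5 kb downstream of the start of Fgd2, had 135 and 29 reads, and H3K4me3 only in WT. The other sites were near Timm22 (in an Abr intron, 115 and 58), Gm14401 (114 and 41), Gm14410 (108 and 26) and Foxh1. The sites at Gm14401 and Gm14410 were in repeated windows.

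The 10 sites with the tallest KO Sox2 summits were other sites. In WT, 3 of them lay in H3K4me3 and 6 in H3K27me3, and in KO 3 lay in each. The tallest lay in an intron of Rhpn2, with 37 reads of WT Oct4 and 113 of KO Sox2, in none of the mESC histone domains of either genotype, and a KO Nanog summit shared its WT Oct4 base. The site 3.89 kb upstream of Hoxb13, a posterior Hox gene, had 104 and 111 reads and was in H3K4me3, H3K27me3 and H3K9me3 in both genotypes, with the WT Sox2 summit already named at 20 bp. The site near Inhbb, an activin subunit gene, had 58 and 91 reads and was in H3K27me3 only in WT. The others were near Gm5089 (87 and 108), Pla2g2d (24 and 95), Spaca3 (in an Accn1 intron, 91 and 92), Spc24 (in a Kank2 exon, 39 and 90), Utrn (81 and 87), Prmt8 (50 and 86) and Ptgs1 (50 and 84). None of the 20 sites lay in a Uhrf1 window.

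Counted by nearest start, the sites belonged to 1755 protein-coding genes, of which 1519 had 1 site, 197 had 2, 32 had 3 and 7 had 4. The 7 were A830018L16Rik, Fcgr3, Gm17624, Meis2, Pcmtd1, Robo1 and Tex21, and the next by name with 3 were Anp32a, Arid2 and Bcor. Meis2, a homeobox factor, had 3 of its 4 sites in WT H3K4me3, Tex21 all 4, and Bcor, a corepressor of a Polycomb complex, 1 of 3. The 4 sites of Fcgr3, an immunoglobulin receptor gene, spanned 15.3 kb, and 3 of them were repeated.

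Of 31 pluripotency genes, 16 (51.6%) had a site within 50 kb of their start, against 10.9% of all 22380 protein-coding genes. The same genes were rich in Oct4 sites of any kind, which 93.5% had within 50 kb against 39.3% of all genes. By nearest start, 15 of them held 24 sites, 19 in WT and 13 in KO H3K4me3. Besides those of Sox2, Mycn and Klf5, a site lay 3.17 kb downstream of the start of Dppa5a, a stem cell RNA-binding protein gene (74 reads of WT Oct4, 37 of KO Sox2). Another lay 12.3 kb upstream of Sall4, a zinc finger factor of the network (66 and 18), and both were in H3K4me3 in both genotypes. A distant one lay 418 kb upstream of Nr5a2, an orphan nuclear receptor gene (54 and 27), outside H3K4me3. Fgf4 had sites 4.05 kb upstream and 11.5 kb downstream of its start, both between genes.

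Of 27 genes of LIF, FGF, Nodal and Wnt signalling, 7 (25.9%) had a site within 50 kb, and 81.5% had a WT Oct4 site of any kind. Their 10 sites by nearest start included 8 in H3K4me3 in WT and 8 in KO. Etv5, a target of FGF signalling, had one in its own intron (58 and 31 reads). Il6st, the LIF co-receptor gp130, had one 58.4 kb upstream (45 and 36), with a WT Sox2 summit at 90 bp. Fgfr1 had an intronic site (41 and 19) and one 18 bp from its start (20 and 18). Id1, an inhibitor of differentiation, had one 18.0 kb upstream (36 and 27). Axin2, a feedback inhibitor of Wnt signalling, had one 461 bp into the gene (31 and 24), and Lefty1, a Nodal inhibitor, one in an intron (24 and 15).

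Genes of DNA methylation and of the chromatin complexes also had sites. Of 15 DNA methylation genes, 6 (40.0%), against 73.3% with a WT Oct4 site of any kind, had a site within 50 kb. By nearest start, the methyltransferase genes Dnmt3b and Dnmt3a had sites 6.19 kb (77 and 37 reads) and 72.9 kb (38 and 23) upstream, and the demethylation genes Tet2 (61 and 22) and Tet1 (47 and 24) had intronic ones. Uhrf1 and Dnmt1 were the nearest gene of none. Of 17 Polycomb genes, 7 (41.2%) had one within 50 kb, against 88.2% with a WT Oct4 site of any kind. By nearest start, sites lay near Rnf2 (54 and 29), Mtf2 (54 and 18), Ezh1 (48 and 54), Ezh2 (37 and 15), Jarid2 (35 and 29) and Suz12 (21 and 20). Of their 8 sites, 6 were in H3K4me3 in both WT and KO. Of 14 genes listed for COMPASS complexes, whose catalytic subunits methylate H3K4, 2 (14.3%) had a site within 50 kb. A WT Oct4 site of any kind lay within 50 kb of 64.3%. Mll3 had one 942 bp upstream (30 and 17), in H3K4me3 in both genotypes.

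Among lineage genes, 6 of 19 neuroectoderm genes (31.6%), 3 of 20 mesoderm and heart genes (15.0%), 2 of 10 endoderm genes and 3 of 9 trophoblast genes had a site within 50 kb. In WT, 8 of the 9 neuroectoderm sites were in H3K27me3 and in KO none, beside the 88.8% of all WT Oct4 sites in WT H3K27me3 that were outside it in KO. These included sites in Pax6 (94 and 43 reads) and near Otx2 (51 and 32), Neurog1 (45 and 13), Zic2 (24 and 22) and Pax7 (15 and 16), all factors of neural or neural crest development. The site of Sox3 (46 and 22) was outside H3K27me3. All 4 trophoblast sites stayed in H3K27me3 in KO. They lay in Cdx2 (91 and 36) and Ascl2 (49 and 22), and upstream of and inside Eomes (62 and 47, and 21 and 19), which the mesoderm list also holds. Msx1 (38 and 22) and Hand2 (30 and 12), of mesoderm, were in H3K27me3 only in WT, as were Foxa1 (45 and 42) and Sox17 (27 and 13), of endoderm. Of 13 annotated genes of the 2-cell stage, 0 had a site within 50 kb and 6 had a WT Oct4 site of any kind. Over all protein-coding genes these shares were 10.9% and 39.3%. The nearest to any of them was 51.2 kb from Zfp352. The lists were small and were not compared by a test.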

How the data were processed

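Regions of ChIP-seq enrichment in WT and Uhrf1 KO E14 mESC and EBs were analysed as deposited, with 1 list per library and replicate. The authors mapped reads with Bowtie2 2.1.0 to mm9, keeping 1 alignment per read. They used MACS for factor summits, each deposited with a signal, its height in piled-up reads, and no stated scaling to depth. For histone domains the authors used RSEG and deposited a signal per bin and a domain score that is larger for longer domains. The domain score served only to keep the upper part of a list in an alternative. Uhrf1 windows of 10 kb were deposited without a score. Neither the 8 inputs nor any read totals were used here, and the lists themselves give no depth.

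WT Oct4 summits were classed by summits within 100 bp. Domain membership was that of the summit base. Genes came from the GENCODE annotation of NCBIM37, and 0 regions reached past the end of a chromosome of that assembly. Sequence was available for 2037 of 2045 sites, and the other 8 were on unplaced or random sequence. Shares were compared by Newcombe intervals at 95%, and also within 5 equal groups of WT Oct4 height, cut on both classes together and weighted by the number of sites replaced by Sox2 alone, with a normal interval. With 1 library per group no test between genotypes was possible. Alternatives were summit distances of 50 and 200 bp, taller summits, KO lists as short as the WT lists, wider or higher-scoring domains and other motif and gene definitions. Leaving out repeated windows, the composite with at most 3 mismatches and a stricter choice of sites were added after the data were seen, as were the sequences other than those of the 6 tallest WT Oct4 sites, the Fgf4 sites, the marks of sites near lineage genes, and the comparison by height group. Named sites were the 10 tallest by WT Oct4 and by KO Sox2 and those beside the limit, and named genes were the 10 with most sites and up to 6 per list by WT Oct4 height. The sites and the gene lists were chosen with earlier results of these data known. Python 3.11.15, numpy 2.4.6, pandas 2.3.3 and matplotlib 3.10.9 were used. The classing, domain and motif calls were tested on simulated data, with 0 wrong of 6000 classes, 20000 domain calls and 2000 motif places.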

Additional observations from a re-analysis of the deposited data

Results flagged for a closer look

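The KO minus WT difference in the share of these sites inside H3K4me3 had different signs between stages. In mESC and then in EBs of weeks 1, 2 and 3 it was -8.51, -8.61, 6.31 and 4.11 percentage points. For H3K27me3 the same differences were -22.0, 0.880, -13.8 and -10.3 points. With 1 library per genotype and stage, the difference between stages was not tested. The shares over all WT Oct4 sites had the same signs, at -8.16, -6.16, 5.54 and 3.74 points for H3K4me3 and -26.6, 1.25, -17.7 and -11.4 for H3K27me3.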

How the results depend on the processing

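Of 104 values recomputed, 63 stayed within 1.5 times the count or within the interval of the reported value, 41 did not, and 0 reversed where the reported interval lay to 1 side of 0. The cause of a shift was not tested. The sites numbered 2045 as reported, 1268 with summits at or above the median height of their list, and 1074 with the KO Sox2 and Nanog lists shortened to the length of the WT lists. With taller summits the shares were 24.2% for WT H3K27me3, 33.6% for WT H3K9me3, 4.57% for Uhrf1, 4.34% near a gene start and 3.25% for the strict composite. The H3K4me3 differences were then -6.71 points from Nanog alone, 1.14 from Sox2 and Nanog and 10.6 from bare losses, and the composite difference from bare losses 2.25. With shortened lists the shares were 54.3% for WT H3K4me3, 21.1% for H3K27me3, 30.4% for H3K9me3, 2.23% for Uhrf1, 4.75% near a start and 3.26% for the composite, and the differences from bare losses 23.0 points for H3K4me3 and 2.50 for the composite. The share near a start and the Uhrf1 share were thus lower under both settings. With domains at or above the median score, the 3 WT marks stood at 33.5%, 21.3% and 32.0%, and the H3K4me3 difference from bare losses at 13.9. Within 50 bp, Uhrf1 was 6.60%, the share near a start 8.18%, and the H3K4me3 difference 0.866 from Sox2 and Nanog and 14.5 from bare losses. Without repeated windows, chosen after seeing the data, WT H3K4me3 was 56.3%, H3K9me3 30.7% and Uhrf1 1.74%, with H3K4me3 differences of 5.82, 10.1 and 5.11 points. Within 2 kb of a start lay 13.7%, and within 1 kb of any annotated gene 12.2%. The octamer alone gave 11.1%, with differences of -2.49 from Nanog alone and 3.07 from bare losses, and the composite with at most 3 mismatches, also chosen after seeing the data, 23.4%, -3.39 and 9.88. Keeping only the 1722 sites with no WT Sox2 or Nanog of either genotype within 100 bp, also chosen after seeing the data, moved none of the values. No paired analysis was possible because each group holds 1 library and the results come from no test. Within height groups the octamer and loose composite differences became smaller or changed sign, as given with the motifs.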
